A study of Homo sapiens with 6 samples.

Results

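The MHC class II genes and the invariant chain were followed in Capan1, an established human pancreatic cancer cell line described in the labels as well differentiated. The set comprised 9 genes chosen by name: the classical chains HLA-DRA, HLA-DRB1, HLA-DPA1, HLA-DPB1 and HLA-DQA1, the peptide editor chains HLA-DMA and HLA-DMB, the invariant chain CD74 and the transactivator CIITA. Earlier results of these data were known when the set was chosen. All probes annotated to these symbols were taken, which gave 11 of the 47228 probes on the array and covered 8 of the 9 genes. No probe was named HLA-DQA1, which was not analysed here. The first group held 3 arrays of Capan1 grown on top of a gel of type I collagen and Matrigel that contained stellate cells of the line PS1. The second held 3 arrays of Capan1 grown alone on the gel. All gels were lifted onto a grid after 24 hours, fed from below and harvested on day 10, and the cancer cell layer was taken from frozen sections by laser microdissection. A further label names PS1 as the exposure on all 6 samples, which conflicts with 3 of the titles, and the protocol text is the same for all 6. The directions given here rest on the titles. The study covers 1 cancer line and 1 stellate line, and the labels do not say whether replicates are separate cultures. The p-values therefore speak of the spread among these arrays, part or all of which may be technical.

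MHC class II molecules are pairs of an alpha and a beta chain that display peptides from the endosomal pathway to CD4 T cells. The invariant chain CD74 fills the binding groove and escorts new class II molecules to endosomes, where cathepsins trim it and HLA-DM, the HLA-DMA and HLA-DMB pair, exchanges its remnant for a peptide. Dendritic cells, macrophages and B cells make these genes constitutively, and many epithelial cells make them after interferon-gamma, which induces CIITA. CIITA does not bind DNA itself but docks onto factors at a shared promoter module, an X box bound by the RFX complex and CREB and a Y box, a CCAAT element, bound by NF-Y.

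The letters of these boxes were searched in the reference promoters of the members. RefSeq entries on GRCh38.p14, each running from 250 bases before the start of the gene to 50 after it, were matched for 7 of the 9 members, and HLA-DRA and CIITA were not matched. The following 5 are shown because 4 belong to genes whose probes rose with stellate cells, CD74, HLA-DMA, HLA-DMB and HLA-DPA1, and 1 to HLA-DRB1, a classical chain whose own probe stayed near background. They are CD74 at chr5:150412861-150413160, HLA-DMA at chr6:32953048-32953347, HLA-DMB at chr6:32940979-32941278, HLA-DPA1 at chr6:33073600-33073899, 1 of the 2 entries of that gene, and HLA-DRB1 at chr6:32589799-32590098, all on the minus strand and written 5′ to 3′ along the gene. Capitals mark matches on either strand to ATTGG, the core of the Y box, to AGCAAC, a core of the X box, and to ACNGATG, letters from the end of the X box chosen after the sequences were seen, which can overlap AGCAAC. N stands for any base.
CD74: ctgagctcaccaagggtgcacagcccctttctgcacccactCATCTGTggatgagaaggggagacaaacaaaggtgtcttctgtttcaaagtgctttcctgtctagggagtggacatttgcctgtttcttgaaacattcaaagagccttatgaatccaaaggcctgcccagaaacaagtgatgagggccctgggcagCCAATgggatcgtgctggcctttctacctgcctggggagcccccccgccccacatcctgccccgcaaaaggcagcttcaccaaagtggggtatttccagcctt
HLA-DMA: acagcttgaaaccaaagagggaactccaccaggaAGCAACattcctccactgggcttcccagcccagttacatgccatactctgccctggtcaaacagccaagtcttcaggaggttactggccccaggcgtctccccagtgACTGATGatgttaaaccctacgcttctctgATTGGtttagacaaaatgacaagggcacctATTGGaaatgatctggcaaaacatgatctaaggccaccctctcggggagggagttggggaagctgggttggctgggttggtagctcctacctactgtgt
HLA-DMB: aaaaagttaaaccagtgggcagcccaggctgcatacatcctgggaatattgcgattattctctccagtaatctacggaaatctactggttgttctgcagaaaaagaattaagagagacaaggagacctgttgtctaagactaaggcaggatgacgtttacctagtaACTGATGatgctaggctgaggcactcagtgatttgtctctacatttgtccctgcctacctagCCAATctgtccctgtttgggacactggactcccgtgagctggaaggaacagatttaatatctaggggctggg
HLA-DPA1: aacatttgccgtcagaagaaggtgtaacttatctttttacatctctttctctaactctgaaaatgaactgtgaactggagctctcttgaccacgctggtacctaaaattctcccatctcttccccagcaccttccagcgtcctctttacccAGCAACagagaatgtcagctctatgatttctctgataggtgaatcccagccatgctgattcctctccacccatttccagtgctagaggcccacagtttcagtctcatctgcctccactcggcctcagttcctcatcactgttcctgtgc
HLA-DRB1: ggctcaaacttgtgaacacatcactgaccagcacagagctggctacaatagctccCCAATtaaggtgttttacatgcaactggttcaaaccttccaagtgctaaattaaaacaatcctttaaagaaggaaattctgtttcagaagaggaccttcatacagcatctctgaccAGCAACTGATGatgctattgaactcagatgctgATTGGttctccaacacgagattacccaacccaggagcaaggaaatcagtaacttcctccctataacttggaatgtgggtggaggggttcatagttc

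ATTGG occurred in the promoters of 12 of 13 class II and CD74 genes with an entry, the genes being the 7 members and HLA-DRB5, HLA-DQB1, HLA-DQA2, HLA-DQB2, HLA-DOA and HLA-DOB, against 34.6% of 35116 promoters of the same length. HLA-DPA1 was the gene without it in either of its entries. AGCAAC was found in 6 of the 13, against 12.8% of all promoters. ACNGATG was found in 6 of the 13, CD74, HLA-DMA, HLA-DMB, HLA-DRB1, HLA-DRB5 and HLA-DQB1, against 7.65%. All 6 also held ATTGG, and both motifs together occurred in 2.78% of all promoters. Since ACNGATG was chosen from these same sequences, its shares describe them and support nothing further. HLA-DPB1 and HLA-DQA1 held ATTGG and neither X box form, and HLA-DPA1 held AGCAAC in 1 entry and none of the 3 in the other. In HLA-DMA the next ATTGG followed ACNGATG after 23 bases, and in HLA-DRB1, HLA-DRB5 and HLA-DQB1 after 22 bases. In HLA-DMB the next ATTGG lay 55 bases on, and in CD74 149 bases on, both read on the strand opposite to the gene. The ACNGATG match of CD74 was also on that opposite strand, whereas those of the other genes were on the strand of the gene. The promoters are those of the reference assembly and not of the alleles Capan1 carries. A match describes letters, and the arrays did not measure binding.

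A probe was tested where 3 or more arrays detected it (detection p under 0.05), which 18165 probes met. Of these, 7 were among the 11 member probes, for 5 genes, and all 5 genes rose with stellate cells. They were HLA-DRA, HLA-DPA1, HLA-DMA, HLA-DMB and CD74. Over all 10781 named genes tested, 2.65% rose at a limma adjusted p under 0.05, and over all tested probes 2.01% did. Because the set was chosen with earlier results of these data known, its count beside these shares is a description. HLA-DRA, HLA-DMA, HLA-DMB and CD74 were detected on all 6 arrays. HLA-DPA1 passed detection on all arrays with stellate cells but on only 2 alone, so it met the filter only through the arrays with stellate cells, and a count that includes it is a description. With detection on all 6 arrays required, 4 members were tested and 4 rose. The values with stellate cells lay wholly above those alone for all 7 probes, that of HLA-DPA1 included, as they did for 11.8% of all tested probes. More cells with class II RNA and more of that RNA per cell cannot be told apart in a captured layer.

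**Figure D1:**
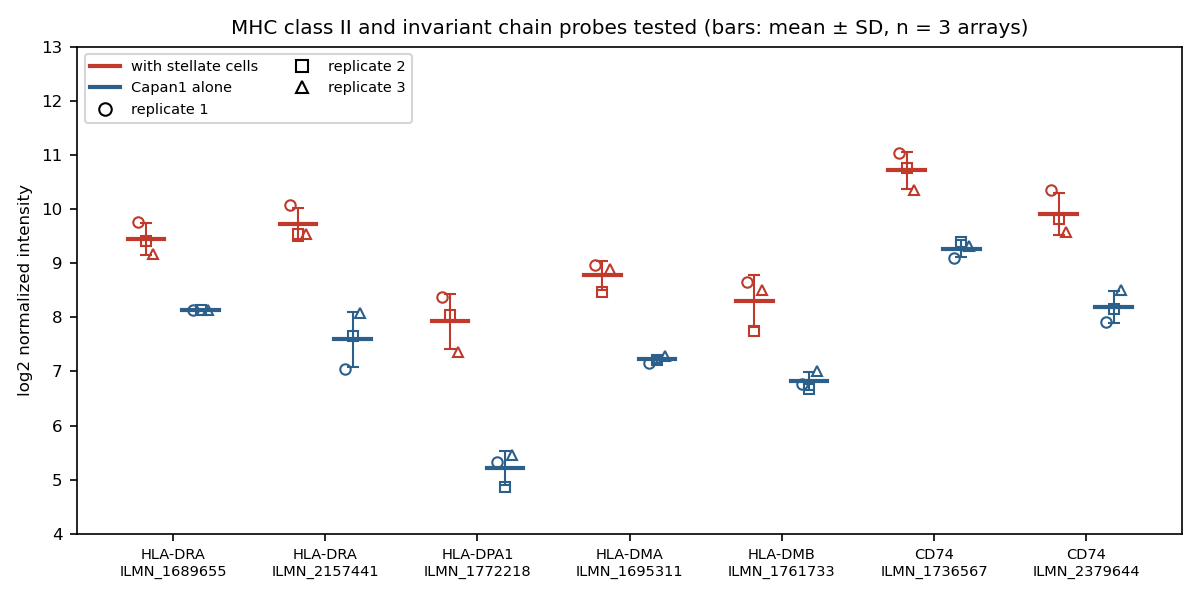
Log2 normalized intensity (vertical axis) of the 7 tested probes of HLA-DRA, HLA-DPA1, HLA-DMA, HLA-DMB and CD74 on each array with stellate cells and alone, with markers for replicates 1 to 3 and bars for the mean ± SD (n = 3). The groups are separated for every probe, from 7.36 to 8.37 with stellate cells against 4.87 to 5.45 alone for HLA-DPA1, and from 9.17 to 9.76 against 8.13 to 8.14 for the first HLA-DRA probe.

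HLA-DRA, the alpha chain that pairs with every DR beta chain, was read by 2 probes. Probe ILMN_1689655 gave log2 normalized intensities of 9.76, 9.41 and 9.17 in replicates 1, 2 and 3 with stellate cells, against 8.13, 8.13 and 8.14 alone. The arrays alone were almost equal and the lowest array with stellate cells, replicate 3, was still more than 1 log2 unit above them. The log2 change was 1.31 ± 0.18 (SE), a 2.48-fold rise (limma adjusted p = 0.0026), and its call was lost under median scaling (1.05, limma adjusted p = 0.0564). Probe ILMN_2157441 gave 10.08, 9.53 and 9.55 with stellate cells against 7.05, 7.65 and 8.07 alone. Here the spread lay in the arrays alone, where replicate 1 was lowest, and the log2 change was 2.13 ± 0.25 (SE, 4.37-fold, limma adjusted p = 0.00134). Both probes rose, with different sizes.

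HLA-DPA1, the alpha chain of HLA-DP, had the largest change of the member probes after background correction, but not without it or in the authors' deposited value table, where the second HLA-DRA probe was largest at 1.63 and 1.64. Probe ILMN_1772218 stood at 8.37, 8.04 and 7.36 in replicates 1, 2 and 3 with stellate cells, against 5.33, 4.87 and 5.45 alone, on the log2 scale. Replicate 3 with stellate cells was the lowest of its group and still well above the arrays alone. The log2 change was 2.71 ± 0.28 (SE), or 6.54-fold (limma adjusted p = 0.000886). Alone the probe sat at the detection limit: its deposited signal was 156, 121 and 146 intensity units in replicates 1, 2 and 3, where the lowest detected signals of those arrays were 150, 134 and 140. With stellate cells the deposited signal was 308, 430 and 210, against lowest detected signals of 101, 143 and 135. A value so near background depends on how background is removed, and without background correction the log2 change was 1.28 (limma adjusted p = 0.00147). In the authors' deposited value table it was 1.31 (limma adjusted p = 0.00136).

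HLA-DMA and HLA-DMB, whose products form the HLA-DM peptide editor, moved by similar amounts. HLA-DMA probe ILMN_1695311 gave 8.97, 8.48 and 8.89 with stellate cells against 7.16, 7.21 and 7.29 alone, a log2 change of 1.56 ± 0.19 (SE, 2.94-fold, limma adjusted p = 0.0015). HLA-DMB probe ILMN_1761733 gave 8.65, 7.75 and 8.50 with stellate cells against 6.77, 6.68 and 7.01 alone, a log2 change of 1.48 ± 0.24 (SE, 2.79-fold, limma adjusted p = 0.00668). In both genes replicate 2 was the lowest array with stellate cells, and not replicate 3 as in HLA-DPA1, CD74 and the first HLA-DRA probe. The call of HLA-DMB was lost without replicate 2 alone (log2 change 1.41, limma adjusted p = 0.0522) and with the mean signal of each array as a covariate (1.16, limma adjusted p = 0.0662).

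CD74, the invariant chain, had 3 probes. Probe ILMN_1736567 stood at 11.04, 10.76 and 10.35 in replicates 1, 2 and 3 with stellate cells against 9.10, 9.40 and 9.31 alone, on the log2 scale, a change of 1.45 ± 0.18 (SE, 2.73-fold, limma adjusted p = 0.00185). Probe ILMN_2379644, annotated to another transcript record of the gene, gave 10.35, 9.81 and 9.58 with stellate cells against 7.92, 8.15 and 8.50 alone, a change of 1.72 ± 0.22 (SE, 3.30-fold, limma adjusted p = 0.00185). Both probes ordered the arrays with stellate cells alike, replicate 1 highest and replicate 3 lowest. The remaining probe, ILMN_1761464, passed detection on 2 arrays with stellate cells, replicates 1 and 2, but on none alone, and was not tested. Its mean with stellate cells was 1.12-fold the lowest detected level alone. That mean includes replicate 3, where the probe was not detected, so it is not a lower bound.

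The 3 other members with a probe were at or near background in both groups. CIITA, the master transactivator of class II genes, was detected on no array. Its probe ILMN_1773363 had deposited signals of 101, 115 and 111 intensity units in replicates 1, 2 and 3 with stellate cells, against 141, 119 and 123 alone, and its detection p with stellate cells was 0.0506, 0.621 and 0.548, the first just over the threshold of 0.05. HLA-DPB1, the beta partner of HLA-DPA1, was also detected on no array, with signals of 85.5, 113 and 104 with stellate cells against 115, 98.4 and 117 alone. The level of these 2 genes and any change in it was not detectable on these arrays, which does not show that it was absent.

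HLA-DRB1, the main DR beta chain, was detected on 1 of the 6 arrays, replicate 2 with stellate cells, where its probe ILMN_1715169 had a signal of 153 intensity units and a detection p of 0.013. With the filter on dim probes removed, the log2 change was -0.04 ± 0.19 for CIITA, 0.02 ± 0.08 for HLA-DPB1, 0.33 ± 0.22 for HLA-DRB1 and 0.80 ± 0.26 for the dim CD74 probe (SE, limma adjusted p = 0.971, 0.964, 0.679 and 0.211). None of the 4 passed. Class II genes are highly polymorphic, the probe sequences were not used here, and whether the probes of HLA-DRB1 and HLA-DPB1 match the alleles of Capan1 was not tested.

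**Figure D2:**
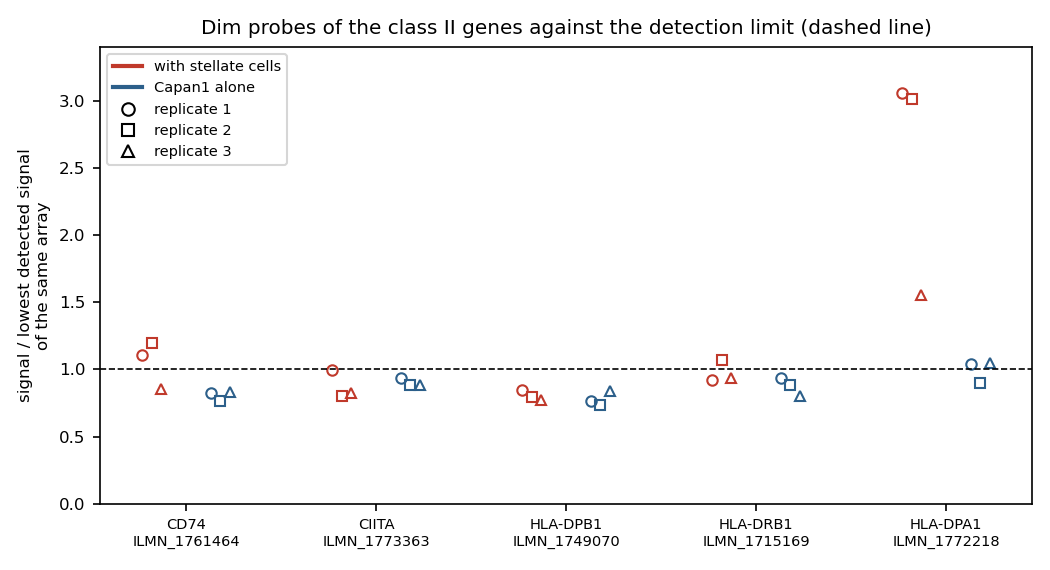
Deposited signal divided by the lowest detected signal of the same array (vertical axis) for the 4 member probes below the filter and for HLA-DPA1, on each array with stellate cells and alone. CIITA, HLA-DPB1 and most HLA-DRB1 points lie under the detection limit at 1, 2 arrays with stellate cells exceed it for the dim CD74 probe, at 1.11 and 1.20, and HLA-DPA1 reaches 3.06, 3.01 and 1.55 with stellate cells against 1.04, 0.90 and 1.05 alone.

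Of 10 further class II chain genes 9 had a named probe, 3 were tested and 2 rose, HLA-DRB6 and HLA-DRB4, where 2.65% of all tested genes rose. HLA-DRB6 is a transcribed pseudogene of the DR beta family and its probe ILMN_2066060 gave 7.98, 7.44 and 8.05 with stellate cells against 6.15, 6.03 and 5.80 alone, a log2 change of 1.83 ± 0.23 (SE, limma adjusted p = 0.0016). Its other probe ILMN_2066066 had a change of 2.20 ± 0.26 (SE, limma adjusted p = 0.00134). Both probes of the pseudogene placed all arrays with stellate cells above all arrays alone, as did 11.8% of all tested probes. HLA-DRB4, a DR beta gene carried by some haplotypes, rose in probe ILMN_1752592, at 8.40, 7.78 and 8.01 against 6.35, 6.14 and 7.21 alone (log2 change 1.50 ± 0.28, SE, limma adjusted p = 0.0133). That call was lost without replicate 1 with stellate cells and without replicates 1 or 2 alone, with limma adjusted p between 0.0663 and 0.0802, and with the mean signal of each array as a covariate (limma adjusted p = 0.111). A dimmer HLA-DRB4 probe, ILMN_1679617, had a change of 0.45 ± 0.31 (SE, limma adjusted p = 0.498). Another, ILMN_2159694, was below the filter, and with the filter removed its change was 0.37 ± 0.25 (SE, limma adjusted p = 0.687).

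HLA-DRB3, another DR beta gene of some haplotypes, was detected on all 6 arrays and did not follow. Probe ILMN_1717261 gave 8.46, 7.95 and 8.29 with stellate cells against 8.39, 8.17 and 8.09 alone, with a log2 change of 0.02 and a 95% interval from -0.40 to 0.43 (limma adjusted p = 0.976). The groups overlapped. The interval lies below that of HLA-DRB4, 0.89 to 2.11, though the difference between the probes was not tested. The DR beta genes are near-identical copies, so the gene behind each probe's signal is uncertain. HLA-DQB1, the DQ beta chain, passed detection on 2 arrays with stellate cells but on none alone and was not tested. Its mean with stellate cells was 1.11-fold the lowest detected level alone, which is not a lower bound since that mean includes an array without detection. With the filter removed its log2 change was 0.62 ± 0.27 (SE, limma adjusted p = 0.449), which did not pass. HLA-DOA and HLA-DOB, which restrain HLA-DM, HLA-DRB5, HLA-DQA2 and the pseudogene HLA-DPB2 were detected on no array.

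The class II genes lie in 1 stretch of chromosome 6 that also holds class I loading genes, which allowed a comparison with neighbours. Between HLA-DRA and HLA-DPB1 the RefSeq annotation lists 32 genes, of which 10 were tested, and 5 rose, where 2.65% of all tested genes did. All 5 were class II genes, HLA-DRA, HLA-DRB6, HLA-DMB, HLA-DMA and HLA-DPA1. The 5 other tested genes did not pass. TAP1 and TAP2, the peptide transporter for class I, had log2 changes of -0.18 and -0.50, with 95% intervals from -0.67 to 0.31 and from -1.01 to 0.015. PSMB8 and PSMB9, immunoproteasome subunits, had -0.03 and -0.47, with intervals from -0.45 to 0.38 and from -1.04 to 0.087. BRD2, a chromatin reader that sits between HLA-DMA and HLA-DOA, had 0.28, with an interval from -0.085 to 0.64. The upper bounds of these 5 intervals lie below the lower bounds of the 5 class II genes, the lowest of which is 0.92. HLA-DPA1 is among these although it met the filter only through the arrays with stellate cells. HLA-DRB3, a tested class II gene that is not among the 32, had a change of 0.02. Its interval, from -0.40 to 0.43, overlaps those of the neighbours. The difference between the sets was not tested as such.

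**Figure D3:**
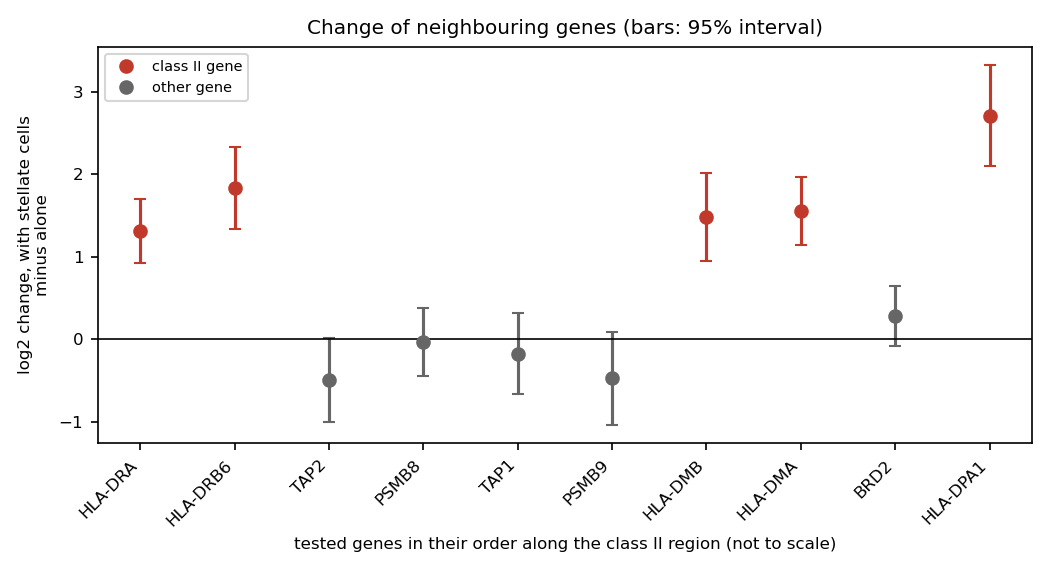
Log2 change, with stellate cells minus alone (vertical axis), and its 95% interval for the 10 tested genes from HLA-DRA to HLA-DPA1 in their order along chromosome 6, not to scale. The 5 class II genes lie between 1.31 and 2.71, and TAP2, PSMB8, TAP1, PSMB9 and BRD2 between -0.50 and 0.28. HLA-DPA1, at 2.71, met the filter only through the arrays with stellate cells.

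The factors that bind class II promoters were measured in the same fit. Over all 10781 tested genes 1200 had an unadjusted p under 0.05 with higher and 997 with lower values, the background for the unadjusted counts of each list. At a limma adjusted p under 0.05, 2.65% of all tested genes rose and 2.11% fell, the background for the calls of each list. When replicate 3 with stellate cells was left out, the called probes numbered 1360 higher and 1398 lower, in place of 366 and 364, the background for each count without that array. All 7 genes of this list, RFX5, RFXAP, RFXANK, NFYA, NFYB, NFYC and CREB1, were tested and 0 passed in limma, also 0 at an unadjusted p under 0.05. Their median log2 change was -0.012. RFX5, the DNA-binding subunit of the RFX complex, stood at 9.88, 9.99 and 9.74 with stellate cells against 9.62, 9.96 and 9.89 alone, a change of 0.05 with a 95% interval from -0.29 to 0.39. RFXANK, another RFX subunit, had a change of -0.01, with an interval from -0.40 to 0.38. NFYB, NFYC and CREB1, the members with the smallest p, had changes of 0.40, -0.16 and 0.12 (limma adjusted p = 0.508, 0.654 and 0.732). Without replicate 3 with stellate cells the count was also 0.

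The route that leads to CIITA gave no call either. Of 11 genes between interferon-gamma and CIITA 8 were tested, 0 passed in limma and 0 had an unadjusted p under 0.05, with a median log2 change of 0.062. IRF1, the factor that acts on the CIITA promoter, was at 8.10, 7.81 and 7.76 with stellate cells against 7.73, 7.15 and 7.92 alone, a change of 0.29 ± 0.22 (SE, limma adjusted p = 0.547). IRF2, a relative of IRF1, and IFNGR1, the ligand-binding receptor chain, had changes of 0.34 ± 0.29 and 0.17 ± 0.17 (SE, limma adjusted p = 0.583 and 0.648). IFNG itself and SOCS1, its feedback inhibitor, were detected on no array.

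Of 18 target genes of interferon-gamma 14 were tested, 1 rose and 0 fell, and 3 had an unadjusted p under 0.05 with higher and 2 with lower values. The gene that rose was GBP2, a guanylate-binding GTPase of cell defence. It stood at 9.89, 9.64 and 8.98 with stellate cells against 7.96, 7.50 and 7.97 alone, a log2 change of 1.69 ± 0.24 (SE, 3.23-fold, limma adjusted p = 0.0028). Its order over the arrays with stellate cells, replicate 3 lowest, was that of CD74. UBD, the ubiquitin-like modifier FAT10, had a value of -0.89 ± 0.26 and PSMB10, an immunoproteasome subunit, one of 0.50 ± 0.16 (SE, limma adjusted p = 0.0776 and 0.112). Without replicate 3 with stellate cells GBP2 and PSMB10 rose and ICAM1 and UBD fell. The median of the list was -0.016. CXCL9, GBP5 and IDO1, which interferon-gamma induces strongly in many cells, were detected on no array, and were chosen for mention after their values were seen.

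**Figure D4:**
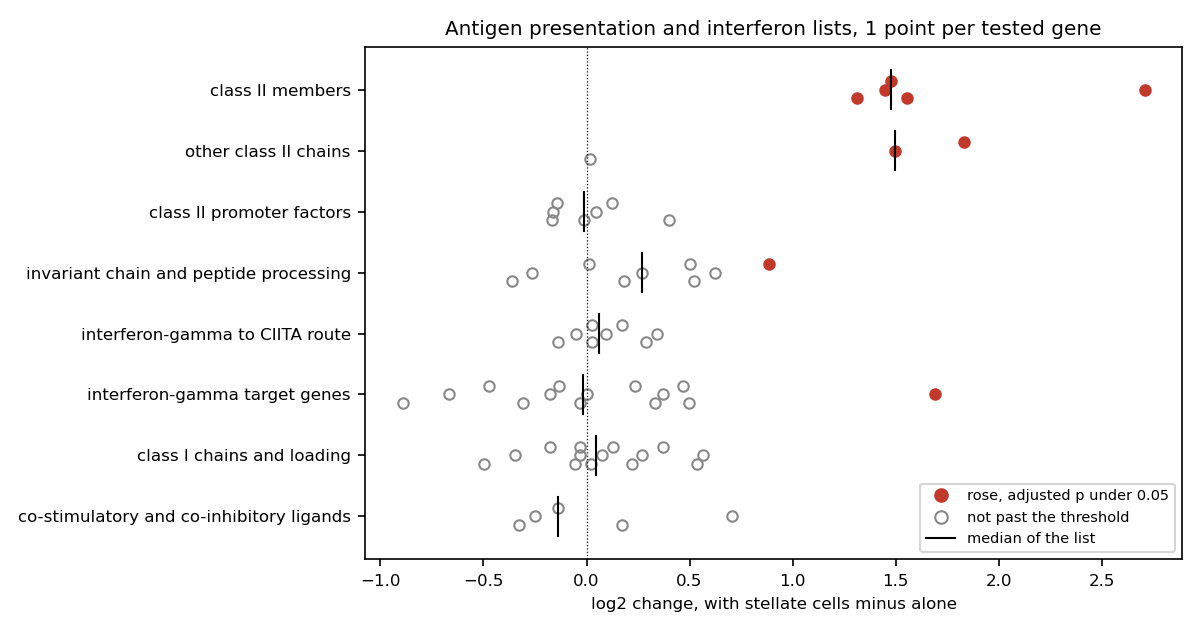
Log2 change, with stellate cells minus alone (horizontal axis), of every tested gene in each gene list (rows), with filled points for genes that rose and a vertical bar for the median of each list. The points of the 5 class II members lie between 1.31 and 2.71, whereas the medians of the lists of promoter factors, the route to CIITA, interferon-gamma targets and class I genes lie between -0.016 and 0.062. The highest member point, HLA-DPA1, met the filter only through the arrays with stellate cells.

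Cathepsins and related enzymes process the invariant chain and the peptides for class II. Of 10 genes 9 were tested and 1 rose, and 3 had an unadjusted p under 0.05, all with higher values. The gene that rose was CTSH, the lysosomal protease cathepsin H. Its probe ILMN_2390853 gave 12.05, 12.03 and 11.69 with stellate cells against 10.998, 10.954 and 11.166 alone, a log2 change of 0.89 ± 0.15 (SE, 1.85-fold, limma adjusted p = 0.00738), and its probe ILMN_1752451 rose too, by 1.14 ± 0.20 (SE, limma adjusted p = 0.00966). CTSD, cathepsin D, and LGMN, legumain, had changes of 0.63 ± 0.20 and 0.52 ± 0.17 (SE, limma adjusted p = 0.119 and 0.126). For both, all values with stellate cells lay above those alone, as they did for 11.8% of all tested probes. CTSS, cathepsin S, which trims the invariant chain in professional antigen-presenting cells, was detected in 1 array with stellate cells and none alone, and was not tested. The call of CTSH was lost with median scaling (log2 change 0.61, limma adjusted p = 0.23), with the mean signal as a covariate and without replicate 1 with stellate cells or replicate 2 alone (limma adjusted p = 0.0544, 0.0539 and 0.0522). Without replicate 3 with stellate cells 5 genes of this list rose, CTSB, CTSD, CTSH, CTSL and LGMN, and 1 fell, CTSC.

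Class I genes, the nearest relatives of the set, gave no call. Of 17 class I chains and loading genes 14 were tested, 0 passed in limma, 2 had an unadjusted p under 0.05 with higher values, and the median log2 change was 0.047. HLA-B stood at 11.64, 11.59 and 11.14 with stellate cells against 11.48, 11.43 and 11.41 alone, a change of 0.02 with a 95% interval from -0.32 to 0.36. B2M, the light chain of class I, had a change of 0.22, with an interval from -0.14 to 0.58. CANX, a chaperone of the endoplasmic reticulum, and TAPBP, tapasin, had the smallest p, with changes of 0.56 ± 0.20 and 0.54 ± 0.20 (SE, limma adjusted p = 0.143 and 0.161). Without replicate 3 with stellate cells HLA-E and TAPBP rose, and the other 12 did not pass. The centred mean of the 14 genes ran from -0.075 to 0.094 with stellate cells and from -0.138 to 0.079 alone, whereas that of the 5 class II members ran from 0.67 to 1.17 and from -0.93 to -0.74. The class II mean includes HLA-DPA1, which met the filter only through the arrays with stellate cells. These means are a description, since the difference between class II and class I was not tested.

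Ligands that co-stimulate or inhibit T cells were mostly below detection. Of 12 genes 5 were tested, 0 passed in limma and 1 had an unadjusted p under 0.05, with a median log2 change of -0.14. TNFSF9, the ligand of the T cell receptor 4-1BB, was at 7.62, 7.62 and 7.21 with stellate cells against 6.50, 6.92 and 6.91 alone, a change of 0.70 ± 0.22 (SE, limma adjusted p = 0.097). CD276 and ICOSLG, further T cell ligands, had changes of -0.25 ± 0.17 and -0.33 ± 0.28 (SE, limma adjusted p = 0.499 and 0.601). TNFSF9 passed without replicate 3 with stellate cells. MIF, a cytokine that binds surface CD74, and CD44, its co-receptor, were the 2 tested genes of 6 in the list of class II turnover and CD74 partners, with changes of -0.31 ± 0.16 and 0.04 ± 0.14 (SE, limma adjusted p = 0.345 and 0.915). Of that list 0 passed in limma, also 0 at an unadjusted p under 0.05.

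Most markers of professional antigen-presenting cells and other blood cells were not detected, and CD68, a lysosomal protein of macrophages, was an exception. Of 21 markers 20 had a probe, 11 of these were detected on no array, among them CSF1R, CD163, TYROBP, FCER1G and MS4A1, and 5 were tested with 0 calls in limma and 1 lower at an unadjusted p under 0.05. PTPRC, the pan-leukocyte antigen CD45, was detected by 1 of 4 probes on 1 array alone and on no array with stellate cells. The summed deposited signal of the list ran from 2382 to 3527 intensity units with stellate cells and from 3088 to 3695 alone. The sums are neither background-corrected nor normalized, and most of these markers were at background. They therefore do not measure the content of such cells. CD68 probe ILMN_1714861 had deposited signals of 618, 1081 and 924 intensity units with stellate cells against 1135, 789 and 833 alone, and was detected on all 6 arrays. After normalization its log2 values were 9.62, 9.66 and 10.14 with stellate cells against 9.55, 9.53 and 9.42 alone. All values with stellate cells lay above those alone, as they did for 11.8% of all tested probes. In its other tested probes, ILMN_2359907 and ILMN_2267914, the groups overlapped. CD68, ITGAM and AIF1, the tested markers with the highest mean level, had changes of 0.31 ± 0.17, -0.79 ± 0.26 and 0.44 ± 0.30 (SE, limma adjusted p = 0.383, 0.115 and 0.489). The part of these cells in the member changes was not tested beyond these levels.

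Epithelial markers fitted the label of the captured layer: all 10 were detected on all 6 arrays. Of the 10, 2 rose, 8 had a change above 0 and the median was 0.29, with 5 higher and 0 lower at an unadjusted p under 0.05. KRT19 and EPCAM had changes of 0.03 and -0.11 (limma adjusted p = 0.954 and 0.774). MUC1, a membrane mucin, and ELF3, an epithelial transcription factor, rose by 1.19 ± 0.15 and 1.07 ± 0.16 on the log2 scale (SE, limma adjusted p = 0.0015 and 0.00485), the call of ELF3 being lost under median scaling (0.81, limma adjusted p = 0.116). Of the 10, 5 rose without replicate 3 with stellate cells, CEACAM6, CLDN4, ELF3, KRT8 and MUC1. The part of this shift in the member changes was not tested. Of 25 stellate and fibroblast markers 12 were detected on no array, including COL1A2, FN1 and PDGFRB. Of 8 tested 0 rose and 1 fell, COL6A1, a chain of type VI collagen, at -1.31 ± 0.28 (SE, limma adjusted p = 0.0216), while S100A4, a calcium-binding protein, and VIM, vimentin, the others of highest mean level, had values of 0.28 ± 0.17 and -0.07 ± 0.28 (SE, limma adjusted p = 0.417 and 0.928). The call of COL6A1 was lost when replicate 1 with stellate cells or any of the arrays alone was left out, and with the mean signal as a covariate. Without replicate 3 with stellate cells 2 of the 8 rose, COL6A3 and TAGLN, and 2 fell, ACTA2 and COL6A1. The summed deposited signal of these markers was 13191 to 20726 with stellate cells and 15593 to 17847 alone, neither background-corrected nor normalized. S100A4, the brightest tested marker by mean level, stood at 13.6 to 14.2 on the log2 scale with stellate cells and 13.4 to 13.7 alone. The sums therefore do not measure stellate cell content. Of 6 endothelial markers 5 were detected on no array, and PECAM1 had a change of 0.71 (limma adjusted p = 0.292), which passed at 1.08 without replicate 3 with stellate cells.

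The arrays differed in ways the groups do not explain. They detected 16325 to 19602 probes with stellate cells and 17785 to 19206 alone, at a mean deposited signal of 273 to 449 and 384 to 494 intensity units. Replicate 3 with stellate cells detected the fewest probes and had the highest signal of 28S ribosomal RNA in both probes of that RNA. The probes read 12.85 and 10.85 on the log2 scale there, against 5.97 to 8.32 and 6.59 to 8.10 on the other arrays. The part of replicate 3 with stellate cells in the member changes can be read from the values without it. All 5 member genes rose without that array, with log2 changes of 1.45 for the first HLA-DRA probe, 2.99 for HLA-DPA1, 1.50 for HLA-DMA, 1.38 for HLA-DMB and 1.63 for the brighter CD74 probe.

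Leaving the members out, the 6 tested genes whose profile over the 6 arrays was most like that of HLA-DRA, by the root mean square difference of values centred on each gene's mean, were SIPA1L2, CAPN5, SLC40A1, CD24, SLC6A20 and TMEM176A, at differences of 0.074 to 0.132 log2 units. SLC40A1 is the iron exporter ferroportin, CD24 a surface glycoprotein and SLC6A20 an imino acid transporter. For CD74 they were PRR15L, WIPI1, SIPA1L2, CD24, SERPINA5 and MB, at 0.108 to 0.174. WIPI1 acts in autophagy, SERPINA5 is a protease inhibitor and MB is myoglobin. Within the set, HLA-DRA and CD74 differed from each other by 0.123, less than SLC6A20 and TMEM176A differed from HLA-DRA and all but PRR15L of the listed genes from CD74. They differed from HLA-DMA by 0.23 and 0.26, from HLA-DMB by 0.31 and 0.36, and from HLA-DPA1 by 0.74 and 0.68. A likeness over 6 arrays in 2 groups mostly reflects the shared difference between the groups.

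**Figure D5:**
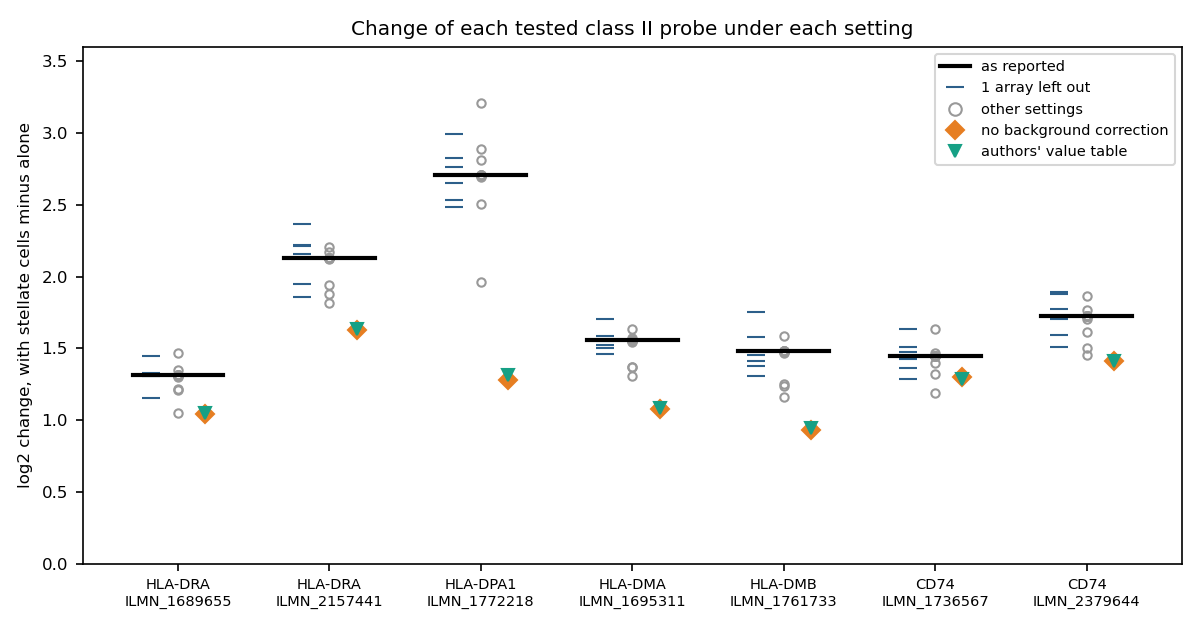
Log2 change, with stellate cells minus alone (vertical axis), of each of the 7 tested member probes as reported, with 1 array left out, without background correction, in the authors' value table and under the other settings. All points lie above 0, and HLA-DPA1 spans 1.28 to 3.21, the widest range of the 7.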

How the data were processed

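RNA from laser-captured Capan1 cells was amplified, labelled with biotin and measured on Illumina BeadChips, per the labels' protocols. The deposited table gives a non-normalized intensity for each of 47228 probes and 6 arrays, with a detection p-value for each, per the file headers, whose steps of 0.0013 limit its precision. GenomeStudio 2011.1 and BeadStudio are named in the submitters' processing notes. The authors' deposited value table was used as an alternative, after log2. Its medians were close to equal across arrays and its normalization is not given in the sources used here. Every column used was mapped to a sample, with 0 columns of no sample.

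Intensities were background-corrected from detection p-values with an offset of 16, quantile-normalized and put on the log2 scale with limma 3.58.1 in R 4.3.3. The 18165 probes that 3 or more of the 6 arrays detected (detection p under 0.05) were fitted with an intensity trend, and p-values were adjusted over all of them by the Benjamini-Hochberg method at 0.05. Of these, 13986 carried 1 gene symbol, 3 several and 4176 none here. A gene was represented by its tested probe of highest mean level. An exact permutation test of 3 against 3 arrays cannot go below 0.1 and was not used. The number of arrays limits the precision.

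The members and lists were chosen with earlier results of these data known. The text names every probe of every member, every gene of a pathway list that passed or, with fewer than 3, those of smallest p up to 3, the 3 marker genes of highest mean level in each marker list with any that passed, and the 6 genes outside the set most like HLA-DRA and CD74. Other genes, such as those detected on no array, were named after their values were seen. The fit was tested on simulated data. The alternatives changed the background correction, offset, normalization, filter, model, array weights, covariates and replicate block, and left out each array. Figures were drawn with matplotlib 3.10.9 in Python 3.11.15.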

Additional observations from a re-analysis of the deposited data

How the results depend on the processing

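The 5 member genes rose under every alternative except median scaling, the mean signal of each array as a covariate and leaving out replicate 2 alone, where 4 rose, and a filter on detection on all 6 arrays, where HLA-DPA1 was not tested and the other 4 rose. Leaving out 1 array at a time gave 4 to 5. HLA-DRA missed the threshold under median scaling (log2 change 1.05, limma adjusted p = 0.0564 for the first probe), and HLA-DMB under the covariate and without replicate 2 alone. No member probe changed direction under the alternatives run. Leaving out background correction gave the lowest value of 6 of the 7 member probes, and median scaling gave the lowest value of the brighter CD74 probe, 1.19. Uncorrected intensities gave HLA-DPA1 a log2 change of 1.28, its lowest value, with HLA-DMA at 1.08 and HLA-DMB at 0.93, and HLA-DPA1 reached 3.21 with an offset of 4. Over all probes, 366 were higher and 364 lower. Median scaling gave 83 higher and 437 lower, with a median log2 change over all probes of -0.202 in place of -0.013. Counts of higher and lower probes were 201 and 191 without the intensity trend, 1632 and 1725 with array weights, and 94 and 103 with the covariate, and ran from 87 to 1360 and from 65 to 1398 with 1 array left out. Pathway genes that changed numbered 4, against 17 with array weights, 2 with the covariate and 2 to 15 with 1 array left out, the highest without replicate 3 with stellate cells. The causes were not tested. The replicate numbers are not said to pair the samples, and same-numbered arrays had correlations of deviations of -0.024, -0.031 and 0.08. With the replicate number as a block 5 members rose, 375 probes were higher and 408 lower, and 5 pathway genes changed. Signals near background limit CIITA, HLA-DPB1 and HLA-DRB1.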
